A study of Mus musculus with 2 samples.

Results

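The 9 genes of the mesenchymal cytoskeleton and contractile apparatus were followed across the cells of the mouse retinal pigment epithelium (RPE) and choroid: Vim, Acta2, Tagln, Cnn1, Tpm1, Tpm2, Myl9, Myh11 and Actn1. They were chosen by symbol, and each of the 9 stands on 1 of the 27998 gene rows of the count matrices. The cells came from C57BL/6 mice (C57BL/6J in the protocol). The treated mice received sodium iodate (NaIO3), an oxidant toxic to the RPE, through a vein at a dose of 20 mg/kg. The control mice received the same volume of phosphate-buffered saline (PBS), with eyes taken after 7 days in both groups. The eyes of 6 mice were pooled in each group and every pool gave 1 droplet library, so no difference below has a replicate check and no test was possible. The agent injures RPE cells acutely and in patches, and this limits it as a model of slow disease. Brownish hexagonal cells were picked under a microscope after dispase digestion, so the mix of cells also reflects the dissection. Values are unique molecular identifiers (UMIs) summed over the cells of a group and scaled to 1000000 UMIs of that group (CPM). Their 95% intervals, in brackets, are exact and cover counting error only.

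Vimentin, the product of Vim, forms the intermediate filaments of mesenchymal cells. The smooth muscle actin of Acta2 builds the thin filaments of pericytes, vascular smooth muscle and myofibroblasts, and transgelin (Tagln), calponin (Cnn1) and the tropomyosins (Tpm1, Tpm2) bind along such filaments. Myh11 encodes the smooth muscle myosin heavy chain, Myl9 a regulatory light chain of myosin, and Actn1 the alpha-actinin that cross-links actin at adhesions. In smooth muscle these genes are driven by serum response factor (SRF), which binds the CArG box, while TEAD factors, the partners of YAP, bind the MCAT element. An epithelial cell that takes up mesenchymal features, as RPE cells do in scars of the eye, is known to gain some of them.

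The promoters of Acta2, Myl9 and Tpm1 are shown because they hold these elements and because the levels of these genes differed between the cell groups compared below. Each is the 250 bases before the RefSeq start on GRCm38.p6, printed along the gene's strand with the matches in capitals. Acta2 is at chr19:34255374-34255623 on the minus strand, Myl9 at chr2:156775214-156775463 on the plus strand and Tpm1 at chr9:67049214-67049463 on the minus strand.
Acta2: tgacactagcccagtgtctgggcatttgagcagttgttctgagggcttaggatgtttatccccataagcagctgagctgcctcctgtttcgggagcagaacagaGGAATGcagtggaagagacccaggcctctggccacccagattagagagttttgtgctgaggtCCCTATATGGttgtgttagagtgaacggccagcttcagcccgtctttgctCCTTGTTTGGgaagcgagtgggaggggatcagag
Myl9: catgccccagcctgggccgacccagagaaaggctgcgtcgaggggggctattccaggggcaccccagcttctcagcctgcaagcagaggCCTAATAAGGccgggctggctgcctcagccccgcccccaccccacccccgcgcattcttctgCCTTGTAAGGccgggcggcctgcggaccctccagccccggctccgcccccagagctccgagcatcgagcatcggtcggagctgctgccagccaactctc
Tpm1: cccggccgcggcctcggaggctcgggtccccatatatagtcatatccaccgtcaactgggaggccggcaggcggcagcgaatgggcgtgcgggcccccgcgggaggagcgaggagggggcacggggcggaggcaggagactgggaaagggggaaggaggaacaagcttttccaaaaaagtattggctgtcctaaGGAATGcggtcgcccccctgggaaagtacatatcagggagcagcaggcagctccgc
In the Acta2 window the capitals mark an MCAT element, GGAATG, 146 bases before the start. They also mark 2 CArG boxes that hold 1 C or G among their 6 central letters, CCCTATATGG 84 bases and CCTTGTTTGG 34 bases before it. The Myl9 window holds a full CArG box, CCTAATAAGG, 161 bases before the start and one with a single G in its centre, CCTTGTAAGG, 99 bases before it. The Tpm1 window holds the MCAT letters GGAATG 56 bases before the start. A full CArG box was searched as CC, 6 letters of A or T, then GG, and MCAT as CATTCC, each on both strands. Of 32851 promoters of this length, 1.47% held a full CArG box, 7.24% one with 1 C or G in its centre and 12.6% an MCAT element. RefSeq windows were matched for 7 of the 9 genes, and those of Vim, Tpm2, Cnn1 and Actn1 held none of the 3 patterns. Tagln and Myh11 are named only.

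The NaIO3 library held 4058 barcodes and 51168520 UMIs and the PBS library 4618 barcodes and 51055592 UMIs, with medians of 9792.5 and 10024.5 UMIs per barcode. The libraries shared 24 barcodes. After removal of poor barcodes and likely doublets, 3812 NaIO3 and 4216 PBS cells formed 23 clusters. The 9 genes and 3 lists of related contractile genes were kept out of the genes used for clustering, and no marker used for naming is 1 of the 9. Cluster 17 is an exception: it was set apart, as described below, because contractile genes, some of the 9 among them, led it. RPE-like cells numbered 899 in NaIO3 (mostly clusters 3, 11 and 21) and 2417 in PBS (clusters 0 and 5). Clusters led by pigment genes such as Pmel and Dct stood apart, cluster 1 (1291 NaIO3 and 3 PBS cells, unnamed) and cluster 2 (993 PBS cells). Free RNA was seen in cells of other types: Rpe65, the visual cycle isomerase, reached 269 CPM in NaIO3 and 561 CPM in PBS macrophage-like cells, which do not make it.

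Cluster 9, a group of 249 cells found in the NaIO3 library only (6.53% of its cells), combined pigment and matrix transcripts. It was picked as the largest cluster that met the rule for both, with each sum at least 2-fold above the median cluster. It is called the matrix-rich pigment cluster and was given no cell type, since its leading genes were Cdkn2b, Tagln, Cdkn2a, Fbln2 and Cthrc1 rather than markers of a type. Its Rpe65 level of 333 CPM was close to the free RNA level in NaIO3 macrophage-like cells, while its summed pigment genes stood 3.16-fold above the median cluster. That sum was 4.66-fold above the median in dendritic-like cells (cluster 13), 4.58-fold in cluster 14 and 2.96-fold in bipolar-like cells, none of them named as pigment cells. Cluster 14, with matrix genes at 2.26-fold, met the rule as well, and RPE markers summed to 52246 CPM in NaIO3 dendritic-like cells. In the other clusters outside the RPE-like and pigment-led ones the pigment sum ran from 0.338 (cluster 17) to 1.0 times the median (cluster 10). The name gives the rule that picked the cluster, and its source was not tested. Fibroblast markers summed to 636 CPM, nearly all of it Col1a1, and decorin (Dcn) was at 19.5 CPM, against 8968 CPM in NaIO3 fibroblast-like cells. Mural markers summed to 131 CPM, with Abcc9 at 0 and Rgs5 at 1.77 CPM. As every one of its cells comes from 1 library, the cluster and that library cannot be told apart.

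Fibroblast-like cells numbered 46 in NaIO3 and 319 in PBS, and came from clusters 10, 14 and 15. Cluster 10 carried Rgs5, a pericyte gene, among its leading genes, and cluster 14 (10 NaIO3 and 77 PBS cells) haemoglobin genes. Cluster 14 scored highest for erythroid markers, but more of the listed fibroblast than erythroid markers stood among its 10 leading genes, which decided its name. Cluster 22, with 20 PBS cells, was mural-like: 9 of 10 mural markers were detected and Rgs5 reached 3768 CPM. Cluster 17, with 2 NaIO3 and 48 PBS cells, was led by Tagln, Myl9, Mylk and Myh11 and is called contractile-led. Its Rgs5 level was 37.3 CPM and 5 of 10 mural markers, Notch3 and Abcc9 among them, were at 0, so it was not named mural. Both contractile clusters were absent or nearly so from the NaIO3 library, and for this the treatment, the dissection and the pool of mice cannot be told apart.

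**Figure D1:**
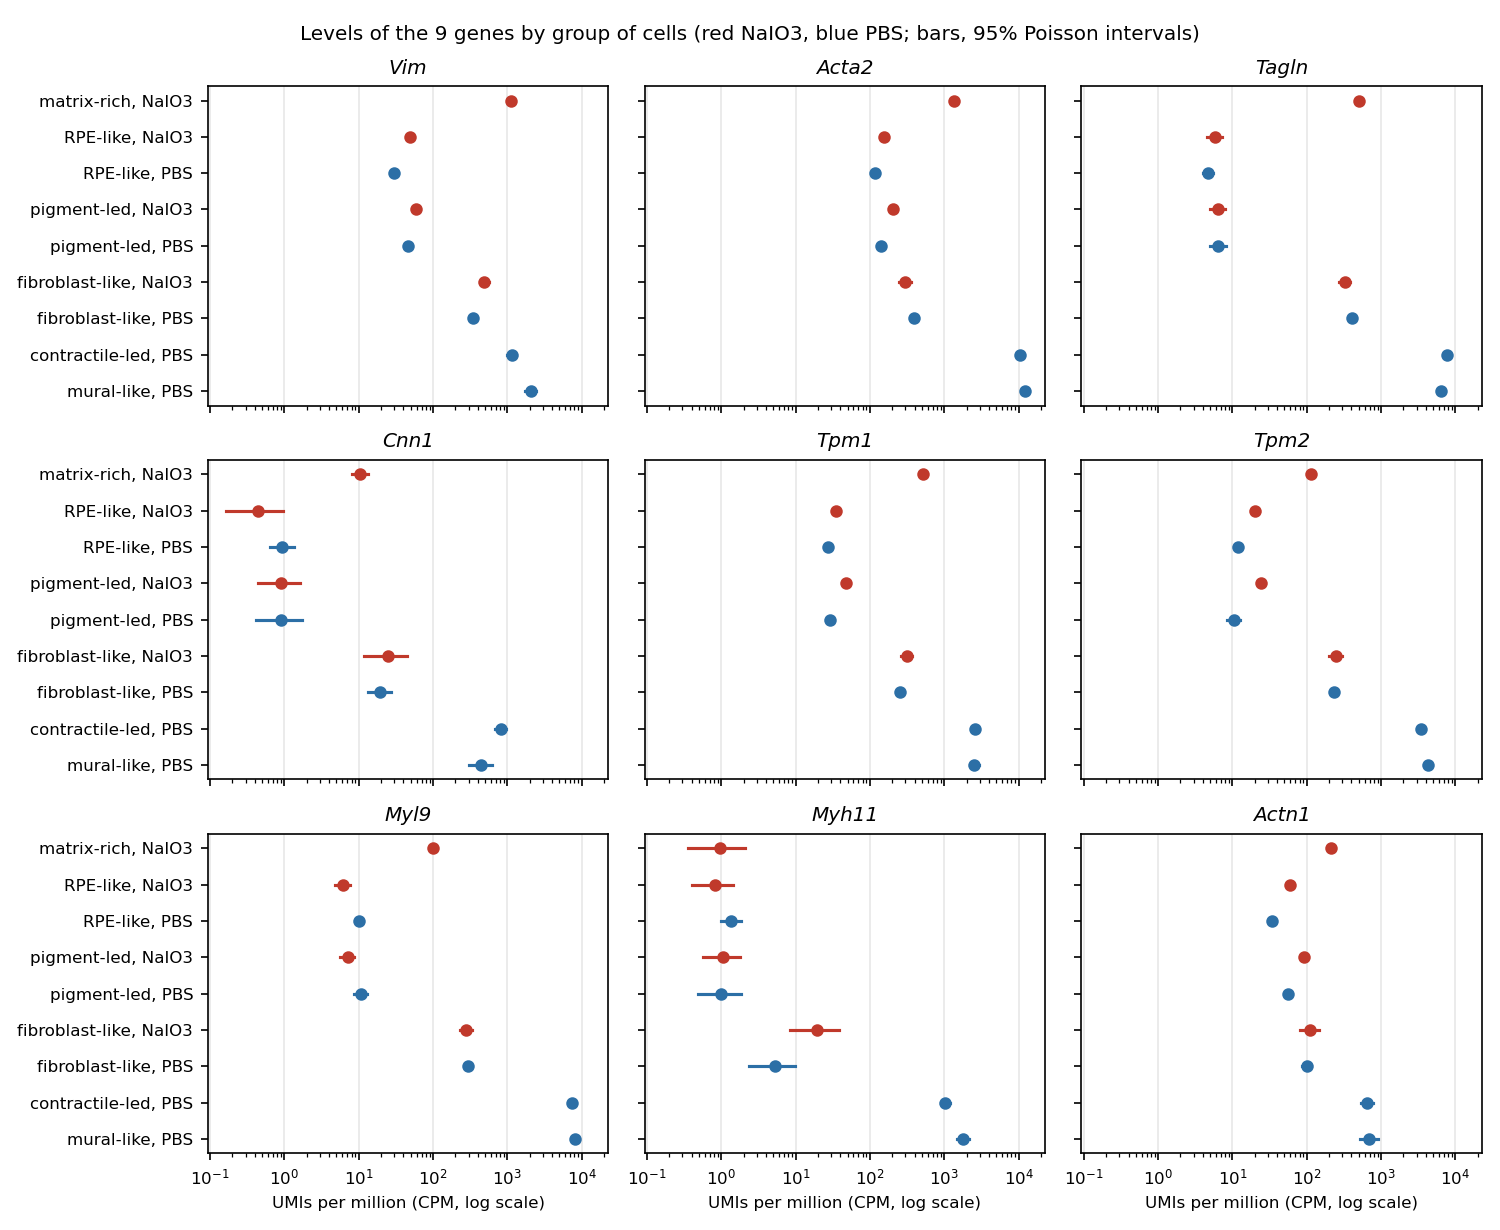
Levels of the 9 genes (CPM, log axis) in the main cell groups of both libraries, with exact 95% counting intervals. Mural-like and contractile-led PBS cells sit highest for the contractile genes, and the matrix-rich cluster lies between them and the RPE-like cells for Acta2, Tagln and Tpm1. For Vim the intervals of the matrix-rich and contractile-led cells overlap. Myh11 is near 1 CPM in all pigment groups.

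Vim (ENSMUSG00000026728, chr2:13573927-13582826, plus strand) was high in several cell types. It reached 1115 CPM (1089–1142) in the matrix-rich cluster, 491 CPM (425–563) in NaIO3 and 345 CPM (318–374) in PBS fibroblast-like cells, and 49.6 CPM (45.9–53.5) in NaIO3 and 30.1 CPM (28.2–32.0) in PBS RPE-like cells. Mural-like cells had 2052 CPM and contractile-led PBS cells 1141 CPM (993–1305), so the contractile-led and matrix-rich levels could not be separated beyond counting error. Endothelial-like cells, with 1743 CPM in NaIO3 and 1756 CPM in PBS, and NaIO3 Muller glia-like cells, with 1020 CPM, also stood high.

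Acta2 (ENSMUSG00000035783, chr19:34241090-34255590, minus strand) was the most abundant of the 9 genes in both contractile groups. It reached 12163 CPM (11384–12981) in mural-like and 10591 CPM (10131–11068) in contractile-led PBS cells. The matrix-rich cluster had 1343 CPM (1314–1372), which was above the fibroblast-like cells, with 300 CPM (250–358) in NaIO3 and 389 CPM (360–420) in PBS. RPE-like cells had 154 CPM in NaIO3 and 116 CPM in PBS, and macrophage-like cells, which do not make this actin, 57.9 and 32.5 CPM. The Acta2 level in RPE-like cells was thus above that in macrophage-like cells of the same library, where the counting intervals did not overlap.

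Tagln (ENSMUSG00000032085, chr9:45929619-45936058, minus strand) set the matrix-rich cluster furthest from RPE-like cells. The matrix-rich cluster had 508 CPM (491–527), fibroblast-like cells 327 CPM (274–387) in NaIO3 and 410 CPM (380–441) in PBS, and RPE-like cells 5.78 CPM (4.57–7.22) in NaIO3 and 4.71 CPM (3.98–5.52) in PBS. Macrophage-like cells had 9.49 CPM (7.24–12.2) in NaIO3, above the RPE-like cells of that library, whose value is thus at background. In PBS they had 4.07 CPM (0.493–14.7; 2 UMIs), which cannot be told from the RPE-like value at this depth. Tagln overlaps Pcsk7 on the other strand, and the strand setting of the counting is not given in the sources used here. Cnn1 (ENSMUSG00000001349, chr9:22099216-22109630, plus strand) was rare outside contractile cells: 10.5 CPM (8.09–13.4) in the matrix-rich cluster, 24.4 CPM in NaIO3 and 19.1 CPM in PBS fibroblast-like cells, and under 1 CPM in RPE-like cells of both libraries. Contractile-led cells had 816 CPM and mural-like cells 443 CPM.

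Tpm1 (ENSMUSG00000032366, chr9:67022590-67049406, minus strand) and Tpm2 (ENSMUSG00000028464, chr4:43514711-43523765, minus strand) encode tropomyosins that stiffen actin filaments and gate myosin. Tpm1 had 523 CPM (505–541) in the matrix-rich cluster, 312 and 255 CPM in NaIO3 and PBS fibroblast-like cells, and 34.5 and 27.7 CPM in NaIO3 and PBS RPE-like cells. Tpm2 had 114 CPM (106–123) in the matrix-rich cluster, below the 244 CPM (199–297) of NaIO3 and 234 CPM (211–258) of PBS fibroblast-like cells. It was at 20.3 CPM in NaIO3 and 11.8 CPM in PBS RPE-like cells. Macrophage-like cells had 20.3 CPM of Tpm2 in NaIO3, level with the RPE-like cells of that library, and 6.10 CPM (3 UMIs) in PBS. Surface epithelium-like NaIO3 cells had 319 CPM. The part of other cells' RNA in the RPE-like values, and in the shares below, was not tested. The pair was thus weighted towards Tpm1 in the matrix-rich cluster, where Tpm1 made up 82.1% (80.8–83.2) of the Tpm1 and Tpm2 UMIs. That share was 62.9% in NaIO3 and 70.2% in PBS RPE-like cells, 56.1% and 52.1% in NaIO3 and PBS fibroblast-like cells, 43.6% in contractile-led and 37.5% in mural-like PBS cells. Other cells were weighted towards Tpm1 to a like degree. Endothelial-like PBS cells had 89.2% (74.6–97.0; 33 and 4 UMIs) and NaIO3 Muller glia-like cells 81.6% (71.0–89.5). Surface epithelium-like cells lay at the other end, with 12.1% in NaIO3 and 14.7% in PBS.

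Myl9 (ENSMUSG00000067818, chr2:156775420-156781658, plus strand) had 100.4 CPM (92.6–109) in the matrix-rich cluster, 278 CPM (230–334) in NaIO3 and 297 CPM (272–324) in PBS fibroblast-like cells, 8086 CPM in mural-like and 7301 CPM in contractile-led PBS cells. RPE-like cells had 6.08 CPM in NaIO3 and 10.0 CPM in PBS, near the 7.91 and 6.10 CPM of NaIO3 and PBS macrophage-like cells. Myh11 (ENSMUSG00000018830, chr16:14194535-14291372, minus strand), the gene that best marks mature smooth muscle, was at 0.968 CPM (0.355–2.11; 6 UMIs) in the matrix-rich cluster. It was at 0.816 CPM (0.407–1.46) in NaIO3 and 1.37 CPM (0.996–1.84) in PBS RPE-like cells, so these 3 values overlap. Fibroblast-like cells had 19.5 CPM (8 UMIs) in NaIO3 and 5.21 CPM (9 UMIs) in PBS, and mural-like cells 1797 CPM and contractile-led cells 1040 CPM. Actn1 (ENSMUSG00000015143, chr12:80167547-80260371, minus strand) varied least over these groups: 214 CPM (203–226) in the matrix-rich cluster, 110 CPM in NaIO3 and 99.5 CPM in PBS fibroblast-like cells, 59.3 CPM in NaIO3 and 33.9 CPM in PBS RPE-like cells, and 697 CPM and 656 CPM in mural-like and contractile-led cells.

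The first comparison asked how the matrix-rich cluster differed from RPE-like cells of the same library. All 8 of the genes with at least 20 UMIs over both groups were past 2-fold higher, where 22.6% of the 12756 genes tested were (8.73% were past 2-fold lower). Tagln stood 87.9-fold higher (70.2–112), Cnn1 23.6-fold (10.3–66.6; 65 and 6 UMIs), Vim 22.5-fold (20.8–24.4), Myl9 16.5-fold (13.1–21.04) and Tpm1 15.2-fold (13.8–16.8). Acta2 was 8.74-fold (8.33–9.18), Tpm2 5.63-fold (4.89–6.50) and Actn1 3.61-fold (3.31–3.95) higher. The median log2 ratio of the 8 was 3.98, against 0.33 over all genes tested. Myh11 did not reach 20 UMIs and had a ratio of 1.19 (0.360–3.50). Against the pigment gene cluster 1 of the same library, the same 8 genes were past 2-fold higher (20.9% of genes), from 2.30-fold for Actn1 to 80.2-fold for Tagln.

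Macrophage markers summed to 1033 CPM in the matrix-rich cluster and 1097 CPM in NaIO3 RPE-like cells, and surface epithelium markers to 1468 and 1428 CPM. Other marker sums differed. Fibroblast markers, all 9 with UMIs in both groups, summed to 636 CPM in the matrix-rich cluster and 27.1 CPM in NaIO3 RPE-like cells, mural markers, 9 of 10 detected in each, to 131 and 60.7 CPM, and melanocyte markers to 16.6 and 50.1 CPM. Their part in the ratios was not tested. Depth differed, with medians of 24235 and 12330 UMIs per cell. When every cell was thinned to 4000 UMIs, Vim was detected in 87.1% of matrix-rich and 15.8% of NaIO3 RPE-like cells (97.6% and 42.8% unthinned), Acta2 in 85.9% and 44.8% (96.0% and 79.3% unthinned) and Tagln in 37.3% and 2.56% (57.8% and 8.12% unthinned). In NaIO3 macrophage-like cells thinned alike, Acta2 was detected in 20.4% and Tagln in 3.16%. Without thinning, Myh11 had a UMI in 6 of 249 matrix-rich (2.41%) and 11 of 899 NaIO3 RPE-like cells (1.22%), against 0.632% of NaIO3 macrophage-like cells with a median of 11617 UMIs. The median doublet score was 0.038 in the matrix-rich cluster and 0.049 in NaIO3 RPE-like cells, and the 8 genes were past 2-fold also in the matrix-rich cells with a score under the library median.

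**Figure D2:**
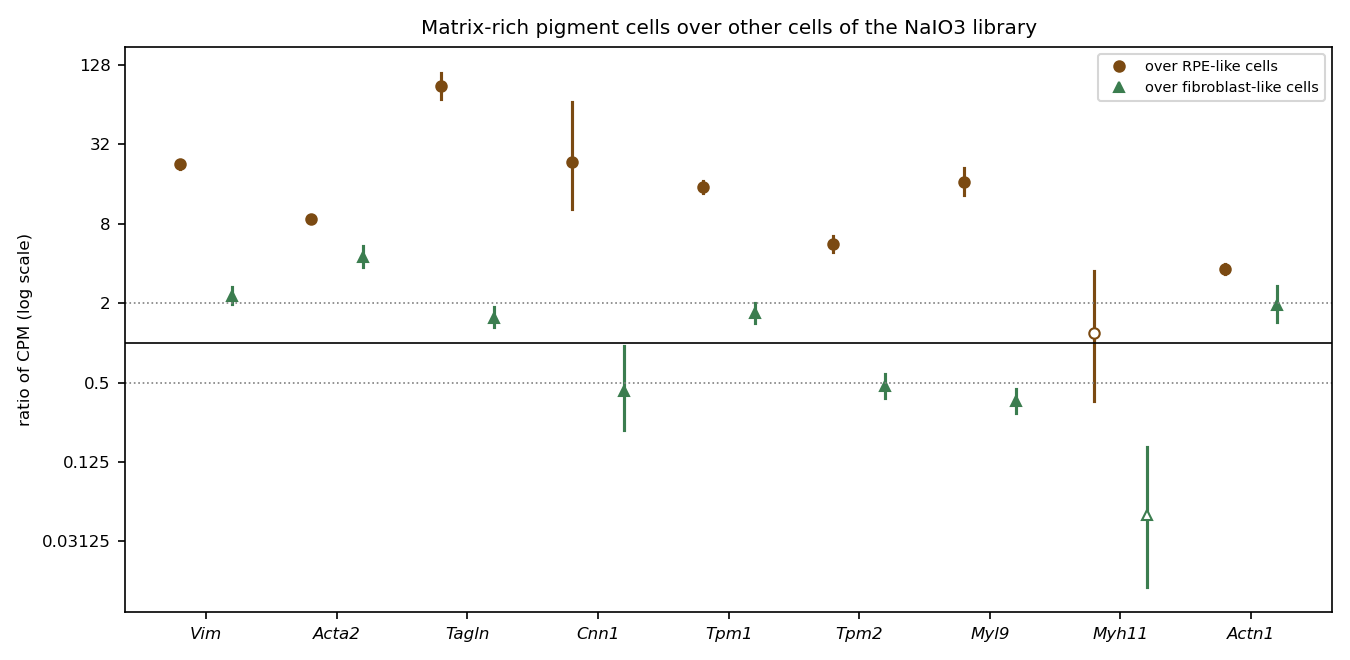
Ratios of CPM, on a log axis, of the matrix-rich pigment cluster over RPE-like cells and over fibroblast-like cells of the NaIO3 library, with exact 95% counting intervals; open symbols have fewer than 20 summed UMIs. Over RPE-like cells 8 genes lie past 2-fold, with Tagln at 87.9, while over fibroblast-like cells Acta2, Vim, Actn1, Tpm1 and Tagln lie above 1 (Acta2 and Vim past 2-fold) and Tpm2, Myl9 and Cnn1 below 1.

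The second comparison set the same cluster beside fibroblast-like cells of the NaIO3 library, the other matrix-producing cells. Here the genes split: 2 of 8 were past 2-fold higher and 3 past 2-fold lower, where 26.8% of 11303 genes were past 2-fold (11.9% higher and 14.8% lower). Acta2 was 4.47-fold higher (3.74–5.39) and Vim 2.27-fold higher (1.98–2.63). Myl9 stood at a ratio of 0.361 (0.295–0.444), Cnn1 at 0.430 (0.219–0.938; 65 and 10 UMIs) and Tpm2 at 0.469 (0.380–0.584). Actn1 at 1.95 (1.45–2.69), Tpm1 at 1.67 (1.40–2.01) and Tagln at 1.55 (1.31–1.86) were higher but within 2-fold, and Myh11, at 0.0496 (0.0142–0.163), rested on 6 and 8 UMIs. The median log2 ratio of the 8 was 0.68, against -0.07 over all genes. The fibroblast-like cells carried free RPE RNA (RPE markers summed to 23760 CPM) and mural markers (605 CPM), whose part in the ratios was not tested. Without the cluster led by haemoglobin genes, the log2 ratio of Vim was 0.86 and that of Cnn1 -0.996, both just inside 2-fold, and with each library clustered alone Vim was at 0.63, Tpm2 at -0.73 and Tpm1 at 1.17.

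The composition of the set differed as well. Acta2 and Vim made up 34.2% and 28.4% of the UMIs of the 9 genes in the matrix-rich cluster, against 46.5% and 15.01% in NaIO3 RPE-like cells, whose next gene was Actn1 with 17.9%. In mural-like cells Acta2 (31.7%), Myl9 (21.1%) and Tagln (16.5%) came first, and Vim made up 5.35%. Myl9 was 2.55% of the sum in the matrix-rich cluster, 1.84% in NaIO3 and 4.25% in PBS RPE-like cells. The summed level of the 9 genes was 3930 CPM in the matrix-rich cluster, 2107 CPM in NaIO3 and 2053 CPM in PBS fibroblast-like cells, 331 CPM in NaIO3 and 236 CPM in PBS RPE-like cells, and 38340 and 35321 CPM in mural-like and contractile-led cells.

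**Figure D3:**
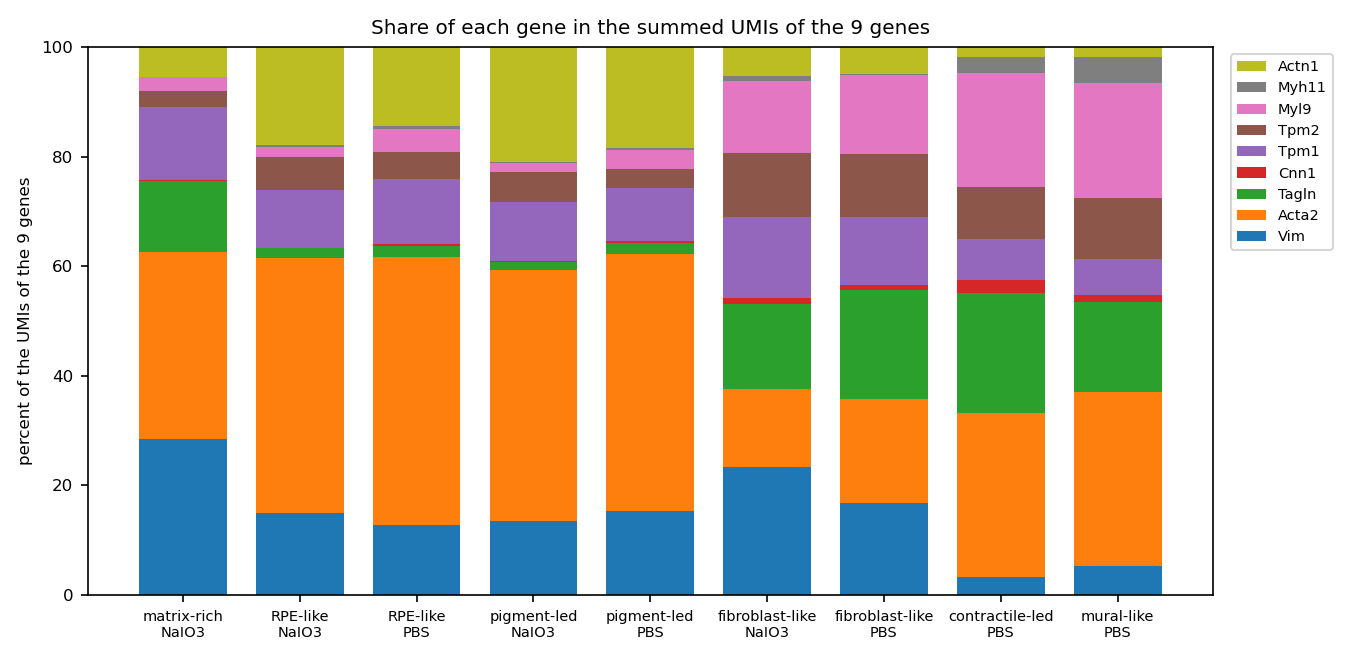
Share of each gene (percent) in the summed UMIs of the 9 genes, by cell group and library. Acta2 and Vim take 34.2% and 28.4% in the matrix-rich cluster, and Myl9 takes 21.1% in mural-like and 20.7% in contractile-led PBS cells, against 2.55% in the matrix-rich cluster and 1.84% and 4.25% in NaIO3 and PBS RPE-like cells.

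Within the matrix-rich cluster the genes were spread unevenly over cells. The tenth of cells with the highest level held 66.2% of the Tagln UMIs, 64.8% of Myl9, 59.5% of Tpm2, 48.5% of Acta2, 44.9% of Tpm1, 35.9% of Vim and 29.8% of Actn1. The level per 10000 UMIs of Acta2 ran from 1.25 at the 10th percentile of cells to 29.2 at the 90th and 103 in the highest cell, with a median of 6.30. For Tagln the median was 0.458 and the highest cell had 48.3. At 4000 UMIs per cell, 59 of 249 matrix-rich cells (23.7%) had at least 3 of the 6 contractile genes Acta2, Tagln, Tpm2, Myl9, Cnn1 and Myh11, and none had all 6. The same was true of 7 of 899 NaIO3 and 9 of 2337 PBS RPE-like cells, 14 of 46 NaIO3 and 32 of 165 PBS fibroblast-like cells, and all 18 contractile-led PBS cells deep enough to count. Thinning left out 80 PBS RPE-like, 154 PBS fibroblast-like and 30 contractile-led PBS cells that were too shallow. Without thinning, 139 of 249 matrix-rich and 49 of 899 NaIO3 RPE-like cells had at least 3.

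**Figure D4:**
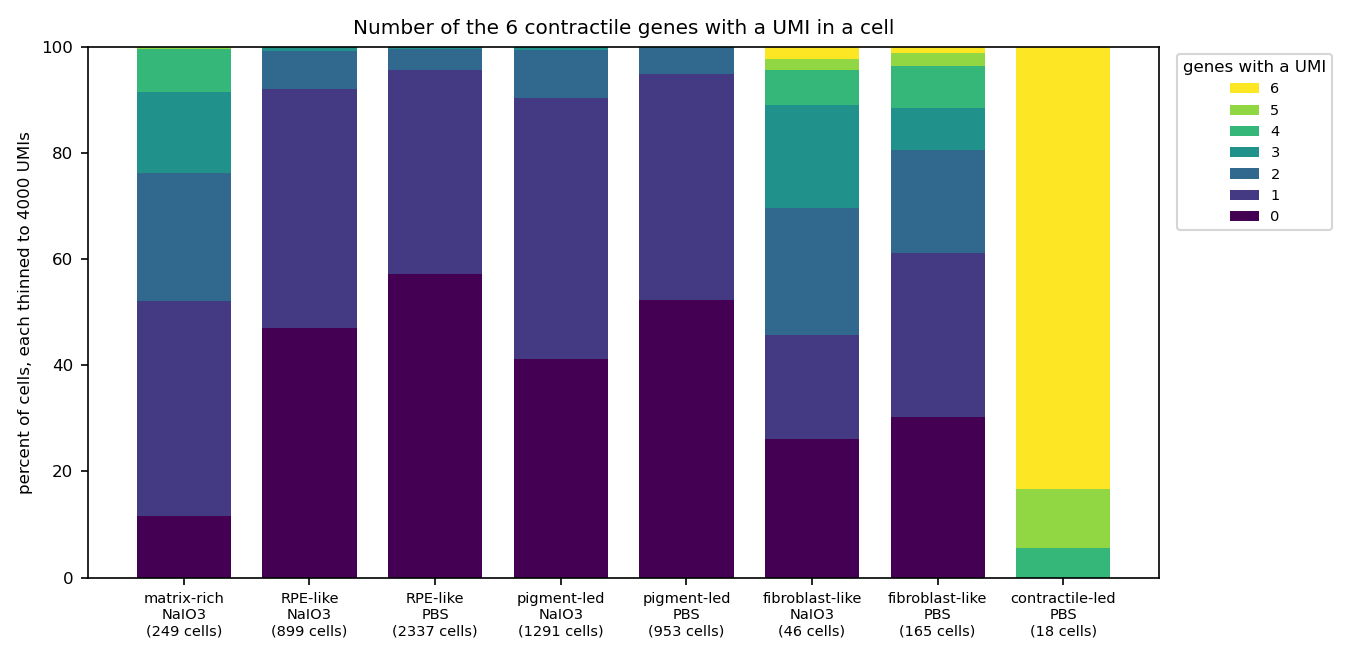
Share of cells (percent) by the number of the 6 contractile genes detected, after thinning each cell to 4000 UMIs, by group and library. Contractile-led cells hold 4 to 6 genes, RPE-like cells mostly 0 or 1, and 59 of 249 matrix-rich cells hold 3 or more.

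At a finer clustering the matrix-rich cells fell into a group of 95 and a group of 154. The 95 cells, led by Tagln, Fbln2 and Cdkn2b (median 28731 UMIs), had 949 CPM of Tagln, 186 CPM of Myl9, 193 CPM of Tpm2, 22.0 CPM of Cnn1, 1693 CPM of Vim and 1769 CPM of Acta2. The 154 cells, led by Cthrc1 and Serpina3n (median 22305 UMIs), had 163 CPM of Tagln, 33.1 CPM of Myl9, 52.7 CPM of Tpm2, 1.44 CPM of Cnn1, 663 CPM of Vim and 1010 CPM of Acta2. Actn1 differed least, with 246 and 190 CPM, and Myh11 stayed at 2 and 4 UMIs. These groups come from the same counts, so their difference is a description. In total the matrix-rich cells, with 12.8% of the library's UMIs, held 86.7% of the Tagln, 61.5% of the Vim and 58.6% of the Acta2 UMIs of the NaIO3 library, but 11.1% of the Myh11 UMIs. In the PBS library the contractile-led and mural-like cells, with 0.396% and 0.158% of the UMIs, held 50.7% and 16.4% of the Tagln and 48.0% and 33.0% of the Myh11 UMIs.

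Mural-like and contractile-led cells were then set beside fibroblast-like cells of the PBS library. All 9 genes were past 2-fold higher in contractile-led cells (14.4% of genes, with 13.1% lower) and in mural-like cells (16.9%, with 21.7% lower), with median log2 ratios of 4.24 and 4.18 against 0.16 and 0.08 over all genes. The contractile-led group was set apart because genes of the 9 and of the related lists led it, so its high levels follow in part from that choice. In contractile-led cells Myh11 was 200-fold higher (103–443; 195 and 9 UMIs), Cnn1 42.7-fold, Acta2 27.2-fold and Myl9 24.6-fold, and Vim was the least different at 3.31-fold. In mural-like cells Myh11 was 345-fold higher (176–771; 134 and 9 UMIs), Acta2 31.2-fold, Myl9 27.2-fold and Cnn1 23.2-fold, with Vim at 5.95-fold. Between mural-like and contractile-led cells none of the 9 genes was past 2-fold (20.5% of 2098 genes were). The ratios of mural-like over contractile-led ran from 0.542 (0.360–0.794) for Cnn1 to 1.80 (1.45–2.22) for Vim. These groups hold 20 and 48 cells with medians of 3438.5 and 3679 UMIs, so few genes could be read.

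The study's comparison of NaIO3 with PBS was read within each cell class. The RPE-like clusters hold the libraries almost apart. Clusters 3, 11 and 21 had no PBS cell, cluster 0 had no NaIO3 cell, and cluster 5 had 2 NaIO3 and 305 PBS cells. Cluster 11 (115 NaIO3 cells) was led by Ifit1 and Rsad2. For RPE-like cells, too, the cluster and the treatment cannot be told apart. In RPE-like cells none of the 9 genes was past 2-fold by the log2 ratio with its pseudocount of 0.5, where 11.0% of 13284 genes were (8.28% higher, 2.71% lower), and the median log2 ratio was 0.32 against 0.07 over all genes. Actn1 had 59.3 CPM in NaIO3 and 33.9 CPM in PBS (ratio 1.75, 1.60–1.92), Tpm2 20.3 and 11.8 CPM (1.73, 1.47–2.02) and Vim 49.6 and 30.1 CPM (1.65, 1.49–1.82). Acta2 was 1.33 (1.26–1.40), Tpm1 1.24 (1.11–1.39) and Tagln 1.23 (0.923–1.63). Myl9 was lower, at 0.606 (0.470–0.775). Cnn1, with 6 NaIO3 and 30 PBS UMIs, had a plain ratio of 0.476 (0.162–1.16), just past 2-fold, and a log2 ratio of -0.98 with the pseudocount, just inside. Of 10 alternatives 5 put it past 2-fold lower. Myh11 at 0.595 (0.277–1.17) rested on 11 NaIO3 UMIs. Markers of other cells moved both ways in the RPE-like cells. Macrophage markers summed to 1097 CPM in NaIO3 and 191 CPM in PBS, and surface epithelium markers to 1428 and 271 CPM. Lower in NaIO3 were rod markers (281 and 745 CPM), fibroblast markers (27.1 and 53.2), mural markers (60.7 and 66.1) and cone markers (28.7 and 49.4). Endothelial (10.5 and 14.7), melanocyte (50.1 and 60.2) and skeletal muscle markers (3.78 and 6.33) were lower too. The part of all these cells' RNA in the ratios was not tested. With free RNA subtracted 2 directions turned: the log2 ratio of Vim was -0.36 and that of Myl9 7.02, the second on corrected PBS counts near 0. With clusters 1 and 2 joined to the RPE-like cells (2190 NaIO3 and 3413 PBS cells), the median log2 ratio of the 9 genes was 0.54. Over all genes it was 0.17 there.

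In the clusters led by pigment genes (cluster 1, unnamed, mostly NaIO3, and cluster 2, PBS), 1 of 9 genes was past 2-fold, where 15.4% of 12435 genes were (13.2% higher). Tpm2 was at 24.5 CPM in 1291 NaIO3 cells and 10.3 CPM in 996 PBS cells, a ratio of 2.37 (1.89–2.99), and was inside 2-fold with TMM scaling (log2 0.99), each library clustered alone (0.96) and a mitochondrial limit of 10% (0.94). Actn1 at 1.69, Tpm1 at 1.65, Acta2 at 1.45 and Vim at 1.30 were higher and Myl9 at 0.665 lower. With free RNA subtracted the directions of Vim (log2 -1.55) and Myl9 (log2 5.44) turned, and with a mitochondrial limit of 10% that of Myl9 (log2 0.08). Surface epithelium markers summed to 1713 CPM in the NaIO3 cells of cluster 1 and 251 CPM in the PBS cells of cluster 2, and macrophage markers to 1460 and 201 CPM. Surface epithelium-like NaIO3 cells had 319 CPM of Tpm2, and the part of these markers' cells in the ratio was not tested. These clusters hold the libraries almost apart, so the cluster and the treatment cannot be told apart.

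Fibroblast-like cells showed no gene past 2-fold among the 8 tested (11.0% of 8914 genes were, 6.52% higher and 4.52% lower), with a median log2 ratio of 0.11 against 0.12 over all genes. Vim had 491 CPM in NaIO3 and 345 CPM in PBS (1.42, 1.21–1.67), whereas Acta2 had 300 and 389 CPM (0.771, 0.631–0.936) and Tagln 327 and 410 CPM (0.799, 0.659–0.962). The intervals of Tpm2, Myl9, Cnn1 and Actn1 included 1. Macrophage markers summed to 1843 CPM in NaIO3 and 163 CPM in PBS fibroblast-like cells, surface epithelium markers to 1325 and 174 CPM and RPE markers to 23760 and 43393 CPM, and macrophage-like cells had 247 CPM of Vim in NaIO3 and 216 CPM in PBS. The part of these cells' RNA in the ratios was not tested. Without the cluster led by haemoglobin genes the log2 ratio was -0.88 for Acta2, -0.63 for Tagln and 0.44 for Vim, against -0.37, -0.32 and 0.51 with it. Within cluster 10 alone, 27 NaIO3 and 168 PBS cells, Acta2 had 309 and 501 CPM, Tagln 460 and 779 CPM and Vim 639 and 373 CPM. In PBS fibroblast-like cells 77.3% of the Tagln UMIs lay in the tenth of cells with the highest level, so a change in the share of such cells and a change per cell cannot be told apart.

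In the other classes few UMIs or free RNA limited the reading. In macrophage-like cells 1 of 7 genes was past 2-fold higher (9.25% of genes were), Tpm2 with 20.3 CPM in NaIO3 and 6.10 CPM in PBS. In surface epithelium-like cells 3 of 7 were (12.5% of genes): Tpm2, with 319 CPM in NaIO3 and 115 CPM in PBS (2.77, 2.35–3.29), Tagln (64 and 3 UMIs) and Tpm1 (2.21, 1.48–3.43). This class joins cluster 4 (440 NaIO3 and 83 PBS cells) and cluster 8 (260 and 18). Its own markers summed to 47175 CPM in NaIO3 and 27992 CPM in PBS, and RPE markers to 7960 and 25152.5 CPM. The part of this mix and of RPE RNA in the ratios was not tested. In dendritic-like cells Acta2 at 2.17 and Actn1 at 2.66 were past 2-fold higher among 4 tested (10.4% of genes), and in rod-like cells Acta2 was 1 of 2 (5.51% of genes), with 13 and 7 UMIs.

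**Figure D5:**
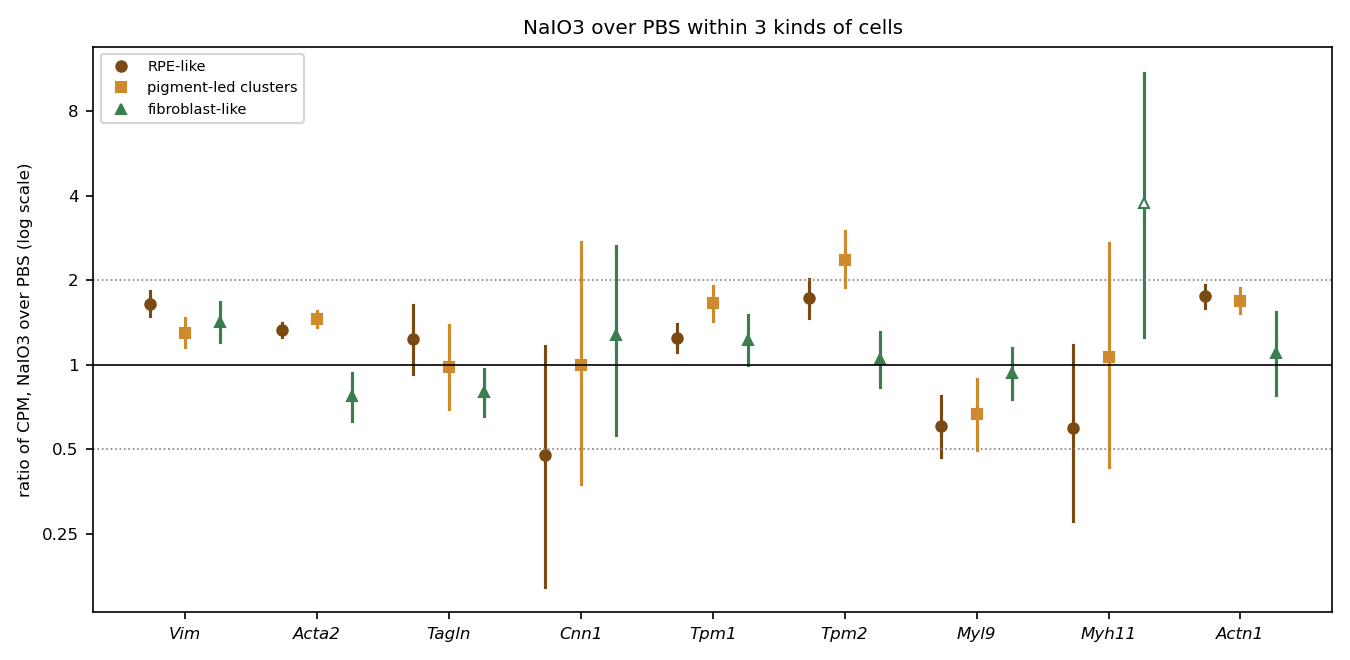
Ratios of CPM in NaIO3 over PBS cells, on a log axis, for the 9 genes in RPE-like cells, clusters led by pigment genes and fibroblast-like cells, with exact 95% counting intervals; open symbols have fewer than 20 summed UMIs. Tpm2 in the pigment gene clusters lies at 2.37, and Cnn1 in RPE-like cells at 0.476, on 6 and 30 UMIs, with an interval that includes 1.

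Wider gene lists were read in the same way for the matrix-rich cluster over NaIO3 RPE-like cells, where 22.6% of all genes tested were past 2-fold higher and the median log2 ratio was 0.33. Of 21 general actin cytoskeleton genes 18 were past 2-fold higher (median log2 1.78), with Tagln2 at 14.6-fold, Tmsb10 at 14.3-fold, Tpm4 at 13.3-fold and Myh9, the non-muscle myosin heavy chain, at 8.65-fold. Of 11 SRF and YAP targets 10 were higher (median 3.41), with Ankrd1 at 117-fold (20.2–4726; 54 and 1 UMIs), Fhl2 at 66.7-fold, Tgfb1i1 at 34.7-fold and Ctgf at 18.0-fold. Of 11 SRF, myocardin and YAP factors 5 were higher, with Tead2 at 64.0-fold (206 and 7 UMIs) and Wwtr1, which encodes TAZ, at 6.86-fold. Among smooth muscle genes Mylk, the myosin light chain kinase, was at 14.9-fold, Ppp1r14a, which encodes an inhibitor of myosin phosphatase, at 10.4-fold and Cald1, which encodes caldesmon, at 3.35-fold. Intermediate filament genes were higher in 3 of 7 (Nes 34.4-fold, Synm 19.2-fold, Lmna 8.45-fold) and transition factors and cadherins in 5 of 7, with Snai1 at 30.5-fold (42 and 3 UMIs), Cdh11 at 11.8-fold and Cdh2 at 6.86-fold. All 9 wound matrix genes were higher, which the rule that chose the cluster had used in part.

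Over NaIO3 fibroblast-like cells, where 11.9% of all genes were past 2-fold higher and 14.8% lower, genes of most lists lay on both sides. Smooth muscle genes were lower in 4 of 8 (Des, Lmod1, Smtn and Mylk, the last at 0.255) and higher in 1, Cald1. General actin genes were past 2-fold higher in 2 of 21 (Myh9 2.20-fold, Pfn1 2.09-fold), a share near that of all genes, with a median log2 of 0.60 against -0.07. SRF and YAP targets were higher in 1 of 11, Ankrd1 (54 and 0 UMIs), again near that share, and lower in 3, Ctgf at 0.273, Fhl1 at 0.412 and Filip1l at 0.419. Their factors were higher in 2 of 11 (Tead1 2.39-fold, Wwtr1 2.09-fold) and lower in 1, Tead3 (48 and 6 UMIs). Intermediate filament genes were higher in 2 of 8 (Synm, with 141 and 3 UMIs, and Krt18, 2.67-fold) and lower in 1, Des. Transition factors and cadherins were lower in 4 of 7, with Cdh11 at 0.0939 and Snai1 at 0.132, and higher in 1, Cdh2, which encodes N-cadherin, at 7.42-fold. Wound matrix genes were higher in 5 of 9, with Tnc at 8.50-fold, and Col3a1 was at 0.0121.

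In contractile-led and in mural-like PBS cells all 13 tested smooth muscle genes were past 2-fold over fibroblast-like cells (median log2 3.93 and 4.16), where 14.4% and 16.9% of all genes were higher and 13.1% and 21.7% lower. Genes of this list also counted in setting the contractile-led group apart, so its result follows in part from that choice. Actg2, the enteric smooth muscle actin, was 146-fold higher in contractile-led and 148-fold in mural-like cells, and phospholamban (Pln) 881-fold in mural-like cells (149–35698; 38 and 1 UMIs). Wound matrix genes went the other way, with 8 of 9 lower in contractile-led and 6 of 9 in mural-like cells.

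Between NaIO3 and PBS RPE-like cells, where 8.28% of all genes were past 2-fold higher and 2.71% lower, the lists differed. Wound matrix genes were higher in 6 of 9 and lower in 1 (median log2 1.80, against 0.07 over all genes). Among them Fn1, which encodes fibronectin, was 19.5-fold higher (271 and 33 UMIs), Lox, which cross-links collagen, 14.5-fold (61 and 10 UMIs) and Postn, which encodes periostin, 7.14-fold, while Col3a1 was at 0.389 (8 and 49 UMIs). The NaIO3 levels were low, at 20.1 CPM for Fn1 and 4.52 CPM for Lox. In macrophage-like cells 6 of 8 wound matrix genes were also past 2-fold higher in NaIO3 (9.25% of all genes). In surface epithelium-like cells 7 of 8 were (12.5%), in dendritic-like cells 2 of 3 (10.4%) and in rod-like cells 1 of 2 (5.51%). The pigment gene clusters had 7 of 9 (13.2%). The matrix-rich cells of the NaIO3 library were rich in these genes, and the part of free RNA in these values was not tested. In RPE-like cells intermediate filament genes were higher in 3 of 7, namely the keratin gene Krt19 at 15.5-fold, Lmna at 2.47-fold and Lmnb1 at 2.06-fold. Of 5 transition factors and cadherins Cdh1, which encodes the epithelial E-cadherin, was 18.0-fold higher (53 and 7 UMIs) and Cdh11 at 0.446. Surface epithelium markers moved with these genes, at 1428 CPM in NaIO3 and 271 CPM in PBS, and their part was not tested. General actin genes were higher in 3 of 21 (Tagln2 8.05-fold, Tmsb4x 3.37-fold, Tmsb10 2.40-fold). Of 13 smooth muscle genes 1 was higher (Pln, 12 and 9 UMIs) and 1 lower (Synpo2, 4 and 23 UMIs), of 10 SRF and YAP targets 1 was lower (Fhl2, 3 and 18 UMIs), and none of 10 of their factors was past 2-fold. In fibroblast-like cells, where 6.52% of all genes were higher in NaIO3 and 4.52% lower, 1 of 21 general actin genes (Tmsb10, 2.04-fold), 2 of 10 SRF and YAP targets (Vcl 2.33-fold, Csrp2 2.11-fold), 1 of 6 intermediate filament genes (Krt19) and 1 of 9 wound matrix genes (Lox, 2.25-fold) were higher. Col1a1 was at 0.473, and Pcp4l1 and Twist2, on 3 and 1 NaIO3 UMIs, were also past 2-fold lower.

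Across 21 groups of at least 20 cells, log2(CPM + 1) of the 9 genes ran together to different degrees, as a description of groups that share libraries and depth. Tagln and Tpm1 were the most alike (r = 0.95), next Tagln and Myl9 (r = 0.95), and Vim and Myh11 the least (r = 0.34). Outside the 9, the genes closest to Tagln were Susd2, Tgfb1i1 and Nfatc4 (r = 0.94, 0.93 and 0.92), and those closest to Myh11 were Atcayos, Des and Myocd (r = 0.93, 0.91 and 0.91). For Cnn1 they were Mir143hg, Mrvi1 and Des (each r = 0.95), for Acta2 Gm11627, Palld and Nexn (0.91, 0.90 and 0.90) and for Myl9 Pde3a, Ano1 and Fibin (0.95, 0.93 and 0.93). Tpm1 was closest to Tpd52l2, Cacna2d1 and Tgfb1i1 (0.92, 0.91 and 0.90), Tpm2 to Gm15867, Ntf3 and Jph2 (0.91, 0.89 and 0.88), Vim to Cpne2, Npm1 and Sept9 (0.93, 0.90 and 0.89) and Actn1 to St5, Fbxo30 and Pofut2 (0.91, 0.89 and 0.87).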

How the data were processed

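The authors deposited raw UMI counts per gene and barcode as 10x matrices, 1 for each library, with no normalisation, and per the labels each library pools the eyes of 6 mice. The submitters' processing notes name Cell Ranger 3.0.2 and mm10. Annotation release, strand setting and cell calling are not given in the sources used for this work. Samples were grouped by the treatment label (1 library per group), so no test was run.

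A minimum of 500 genes and a limit of 25% mitochondrial UMIs removed 114 barcodes in NaIO3 and 231 in PBS. The highest doublet scores, in a share that grew with library size, removed 132 in NaIO3 and 171 in PBS. Both libraries were clustered together in scanpy 1.11.5 on 2000 variable genes, 30 components, 15 neighbours and Leiden resolution 1 (leidenalg 0.10.2). The 9 genes and 3 related lists, 57 genes in all, were left out. Clusters were named from 136 marker genes of 23 classes (135 matched), with a name needing 3 markers and a mean log2 of at least 1. Cluster 17 scored as cone but was led by contractile genes and left unnamed. Cluster 14 scored highest as erythroid and was named fibroblast-like from its leading genes.

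Counts were summed per group and library. Levels carry exact Poisson, ratios exact conditional binomial and shares Clopper-Pearson 95% intervals (scipy 1.17.1), which treat UMIs as independent and cover counting error only. Past 2-fold needed a summed count of at least 20 and used a pseudocount of 0.5. Shares of cells were compared after thinning to 4000 UMIs. Only the ratio intervals and the 2-fold call were checked on simulated data. The simulated counts were independent Poisson counts, the setting that the intervals assume. This check therefore cannot show how the intervals hold for counts spread unevenly over cells. Coordinates come from GENCODE M21 (GRCm38).

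The 9 genes, lists and markers were chosen with earlier results of these data known. Named list genes are the up to 4 past 2-fold with the largest ratio in each list and comparison. Likeness used genes with at least 20 CPM in 1 group. Alternatives were TMM scaling (edgeR 4.0.16), free RNA subtraction, no count minimum, other clusterings (Leiden 0.5 and 2, all variable genes, each library alone), a mitochondrial limit of 10% and no doublet removal. Alternatives on the choice of RPE-like and fibroblast-like clusters, on low doublet scores, and the matching of matrix-rich cells by overlap were added after seeing the data. For 1 gene of the smooth muscle list the result is not reported here, nor is that list's count in the matrix-rich cluster over RPE-like cells.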

Additional observations from a re-analysis of the deposited data

Results flagged for a closer look

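Acta2 had opposite ratios of NaIO3 over PBS in 2 cell classes, which flagged it. In fibroblast-like cells the level was 300 CPM in NaIO3 and 389 CPM in PBS, a ratio of 0.771 (0.631–0.936), while in RPE-like cells it was 154 CPM in NaIO3 and 116 CPM in PBS, a ratio of 1.33 (1.26–1.40). The Acta2 ratio was also above 1 in macrophage-like (1.78), surface epithelium-like (1.82), dendritic-like (2.17) and rod-like cells (2.87, on few UMIs). At a finer clustering, fibroblast-like cells led by Ptn and Dcn had 379 CPM in NaIO3 and 1215 CPM in PBS. Those led by Dcn, Myoc and Igfbp4 had 189 and 194 CPM, and those led by Pi16 and Col3a1 394 and 324 CPM. The NaIO3 values rest, in this order, on 11, 16 and 10 cells (59, 17 and 44 UMIs). Further groups could be read in PBS only. Cells led by Dcn, Myoc and Serpinf1 (49 cells) had 603 CPM there, and cells led by Dcn and Mmp3 (25 cells) 55.0 CPM. With 1 library per group the difference between the classes was not tested. Macrophage markers in RPE-like cells, at 1097 CPM in NaIO3 and 191 CPM in PBS, differed between the libraries as well.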

How the results depend on the processing

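The count of 8 genes past 2-fold in the matrix-rich cluster over RPE-like cells was 8 in all 11 alternatives, and that of 5 over fibroblast-like cells ran from 4 to 6. TMM scaling moved the median log2 ratio of all genes from 0.33 to -0.01 in the first of these, and the 8 genes stayed past 2-fold. In RPE-like cells, NaIO3 over PBS, the count of 0 became 1 with TMM scaling, all variable genes, each library clustered alone, a mitochondrial limit of 10% or, per library, only the largest RPE-like cluster, in each case Cnn1 lower, on few UMIs. It became 2 with free RNA subtracted (Tpm2 log2 8.31 and Myl9 log2 7.02, on corrected counts near 0 in PBS). In fibroblast-like cells the count of 0 became 1 at Leiden 0.5 and without a count minimum (Myh11, higher in NaIO3), and 6, all lower in NaIO3, with all variable genes, where the contractile-led cells joined this class. The comparison of pigment gene clusters gave no value at Leiden 0.5 or with all variable genes. In the 5 comparisons run under alternatives no gene past 2-fold as reported changed its sign. Of genes within 2-fold, some turned and passed 2-fold the other way: with free RNA subtracted Myl9 in RPE-like cells (log2 -0.72 as reported, 7.02) and Vim (0.38, -1.55) and Myl9 (-0.59, 5.44) in the pigment gene clusters, and with all variable genes Cnn1 (0.40, -1.25) and Tpm2 (0.07, -1.08) in fibroblast-like cells. The cause was not tested. Of the other values, those of single genes and shares, 130 moved beyond their interval and 340 did not. Free RNA took 17.0% of NaIO3 and 28.6% of PBS counts of RPE-like cells, and depth limits Myh11 and Cnn1 in pigment cells. No paired analysis was possible because each group is 1 library.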

Other observations

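Vim was high in classes with little of the contractile genes. Endothelial-like cells had 1743 CPM of Vim in NaIO3 (13 cells) and 1756 CPM in PBS (41 cells), with Cnn1 and Myh11 at 0 UMIs in both. Tagln was at 0 UMIs in NaIO3 and 7 UMIs in PBS there. NaIO3 Muller glia-like cells (45 cells) had 1020 CPM of Vim, 165 CPM of Tpm1 and 74.6 CPM of Tagln, and 92.9% of the Tagln UMIs lay in the tenth of cells with the highest level. Surface epithelium-like cells had 319 CPM of Tpm2 in NaIO3 and 115 CPM in PBS, with Tpm1 at 43.7 and 19.8 CPM, so Tpm2 led the pair in both libraries. In NaIO3 these cells were 700 and in PBS 101.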
